A study of Mus musculus with 7 samples.

Results

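The genes described here are 7 members of the Eph receptor and ephrin family on a mouse whole-genome array: the receptors Ephb2, Ephb3, Ephb4 and Epha2 and the ligands Efnb1, Efnb2 and Efna1. They were found by the gene name printed in the array files among probes for genes, which gave 7 of 28508 gene names and 10 of 41174 probes. Ephb2, Ephb4 and Efnb2 had 2 probes each and the other members 1. All 10 passed a filter on dim probes, which asks for a sample signal well above background on 2 or more of the 7 arrays, and were tested among the 24495 probes that passed it. The probe with the highest mean intensity of a gene is called probe 1 and stands for the gene where genes are counted.

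Cells were sorted from mouse intestine on 2 kinds of reporter mice, and RNA of each sort was hybridised once. Of the 7 samples, 6 came from Dll1-EGFP-ires-CreERT2 mice, in which the promoter of Dll1, a Notch ligand of cells entering the secretory lineage, drives green fluorescent protein (GFP) and an inducible Cre. Their GFP-high cells were split by CD24, a surface protein, into CD24 high, CD24 medium and CD24 low, with 2 biological replicates of each per the labels, and 1 sample held GFP-high cells of Lgr5-EGFP-ires-CreERT2 mice, whose reporter follows Lgr5, a marker of crypt base stem cells. All groups therefore share a GFP and CreERT2 allele and a sort for high GFP. No treatment and no age is given in the labels, nor is it said whether animals were pooled. Each sample carried Cy3 and was compared on its array with Cy5-labelled RNA of whole small intestine. A level below is log2 of sample over that reference, so 0 means the level of whole small intestine, and a difference is between 2 such levels. With 2 arrays a group and 1 for Lgr5, the number of arrays limits the precision, and comparisons with Lgr5 assume that its single array varies like the others.

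Eph receptors are receptor tyrosine kinases whose ligands, the ephrins, sit on the surface of neighbouring cells, and contact signals into both cells, forward through the receptor and in reverse through the ephrin. In the intestinal crypt, EphB2 and EphB3 are known targets of beta-catenin and TCF, are strongest near the crypt base and hold cells at their place against ephrin-B on the differentiated cells above. EphB3 is known for its part in keeping Paneth cells, the granular secretory cells of the crypt base, at the bottom. EphB4 and ephrin-B2 are best known from veins and arteries, EphA2 and ephrin-A1 from epithelia.

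Both receptors named as targets of beta-catenin and TCF were measured, and the 250 bases before their RefSeq start are shown because their levels in the sorted cells ran in different orders. They are taken from RefSeq's promoter table on GRCm38.p6, on the gene's strand, with any match to the motifs searched in capitals.
Ephb2, chr4:136836013-136836262, minus strand: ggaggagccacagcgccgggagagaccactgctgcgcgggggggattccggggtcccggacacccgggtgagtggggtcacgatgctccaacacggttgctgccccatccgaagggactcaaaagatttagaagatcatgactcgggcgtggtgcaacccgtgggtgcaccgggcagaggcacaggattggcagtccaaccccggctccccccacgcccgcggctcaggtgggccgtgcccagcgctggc
Ephb3, chr16:21204545-21204794, plus strand: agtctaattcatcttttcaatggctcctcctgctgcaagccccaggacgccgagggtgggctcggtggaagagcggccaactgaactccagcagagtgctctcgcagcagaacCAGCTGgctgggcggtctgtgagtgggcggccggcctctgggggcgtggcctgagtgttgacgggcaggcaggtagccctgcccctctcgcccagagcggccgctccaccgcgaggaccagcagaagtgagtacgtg

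The motif bound by TCF and LEF factors was searched as CTTTGAA, further as CTTTGAT, then as CTTTGTT and lastly as CTTTGTA. The E-box CAGCTG, bound by Atoh1 and other helix-loop-helix factors, and the Rbpj motif GTGGGAA were searched too, and all motifs were searched on both strands. Neither window held one of the TCF and LEF motifs. The Ephb3 window held CAGCTG once, with its first base 137 bases before the start, and the Ephb2 window held none of the motifs. Of the other 5 members, the window of Epha2 held a match to the TCF and LEF motifs, and those of Ephb4, Efnb1, Efnb2 and Efna1 held no match. Of 32851 windows of the same length, 14.8% held a TCF and LEF motif, 13.0% CAGCTG and 5.42% GTGGGAA. These are matches of letters and were not tested for binding.

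The probes are 60 nucleotides long. Probe 2 of Ephb2 and probe 2 of Ephb4 are shown since each disagreed in part with the brighter probe of its gene, as given below.
Ephb2 probe 2, mm9 chr4:136213476-136214873, minus strand: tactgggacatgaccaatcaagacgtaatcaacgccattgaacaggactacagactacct
Ephb4 probe 2, with no position in the array files: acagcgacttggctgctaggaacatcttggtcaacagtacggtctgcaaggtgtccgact

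The probe of Ephb2 covers 1398 bases of the genome with 60 nucleotides, so its match is in separate blocks. The probes of the other members lie on mm9 in unbroken stretches of 60 bases: Ephb2 probe 1 at chr4:136210602-136210661, Ephb3 at chr16:21223025-21223084, Ephb4 probe 1 at chr5:137815289-137815348, Epha2 at chr4:140885139-140885198, Efnb1 at chrX:96343505-96343564, Efna1 at chr3:89076171-89076230, and the probes of Efnb2 at chr8:8618177-8618236 and chr8:8619222-8619281. An annotation of that build was not used here, so no exon is named.

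The sorts were checked on the genes they were made with. Cd24a was at 3.33 and 3.47 in CD24 high, 0.88 and 0.75 in medium, and −0.68 and −0.59 in low. Lgr5 was highest in the Lgr5 sort at 2.51. It was at 1.36 and 1.31 in CD24 high, −0.66 and −0.54 in medium, and −1.23 and −0.75 in low. Dll1 was at 2.81 and 2.53 in medium and 2.57 and 2.52 in low, but at 0.61 and −0.04 in CD24 high, below the 0.88 of the Lgr5 sort. Over 8 tested Paneth markers the median level was 4.80 and 5.11 in CD24 high, −0.53 and −0.12 in medium, −2.06 and −2.17 in low and −3.50 in Lgr5. Enteroendocrine markers had their highest medians in CD24 medium, at 3.17 and 4.82, beside 0.72 and 2.73 on the 2 low arrays. Goblet markers had medians between 1.89 and 3.77 on the Dll1 arrays. In CD24 high the 8 tested ran from −2.74 to 5.64 and from −5.06 to 5.51. At a limma adjusted p under 0.05, 5 of 8 were higher and 1 lower in medium than in high, and likewise in low. Stem cell markers had a median above 0 only in Lgr5, at 1.70. At a limma adjusted p under 0.05, 5 of 9 stem cell markers were lower in medium than in high and 5 lower in low. None was higher, and 18.9% and 15.6% of all probes passed in these comparisons. Medians of enterocyte, immune and mesenchymal markers were below 0 on all 7 arrays, and those of tuft cell markers between −0.87 and 0.32. The groups still differed. In medium against high, 6 of 9 tested mesenchymal markers were lower and 1 higher, and 4 of 8 immune markers lower and 0 higher. In low against high, 3 mesenchymal and 2 immune markers were lower and 0 higher. The highest immune marker read 4.48 and 4.72 in CD24 high. In bulk RNA of this kind, fewer cells of a type and less RNA per cell cannot be told apart. Between 42.5% and 60.5% of gene spots were well above background in the sample channel, fewest in both CD24 high arrays, and no spot was saturated. Lgr5, CD24 high replicate 1 and CD24 medium replicate 1 shared slide 1, and the other 4 arrays slide 2, so CD24 low and Lgr5 shared no slide.

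The members did not move as 1 family. Between CD24 levels, Ephb3 was highest in CD24 high, while Efnb1 and Efnb2 were lowest there, and the other 4 members did not pass the test. In CD24 medium against CD24 high, 2 of 10 member probes passed an adjusted p under 0.05 in limma, where 18.9% of all probes did. In CD24 low against CD24 high it was 3 of 10 beside 15.6% of all probes, and in CD24 low against CD24 medium 0 of 10 beside 0.0857%. Against Lgr5, the counts were 5 of 10 for CD24 high, 2 of 10 for CD24 medium and 4 of 10 for CD24 low, beside 33.4%, 17.7% and 20.8% of all probes. Between low and medium, limma called 21 of the 24495 probes, with 2507 at an unadjusted p under 0.05. The median difference of the 7 members was 0.31 in medium against high and 0.61 in low against high, beside 0.00 and 0.02 over all probes.

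Replicates that do not overlap are common in groups this small. The values of the compared groups were apart for 66.5% of all probes in medium against high, 60.8% in low against high and 40.4% in low against medium, and for 87.0%, 86.3% and 84.0% in high, medium and low against Lgr5. That groups do not overlap is therefore given below as a description.

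**Figure D1:**
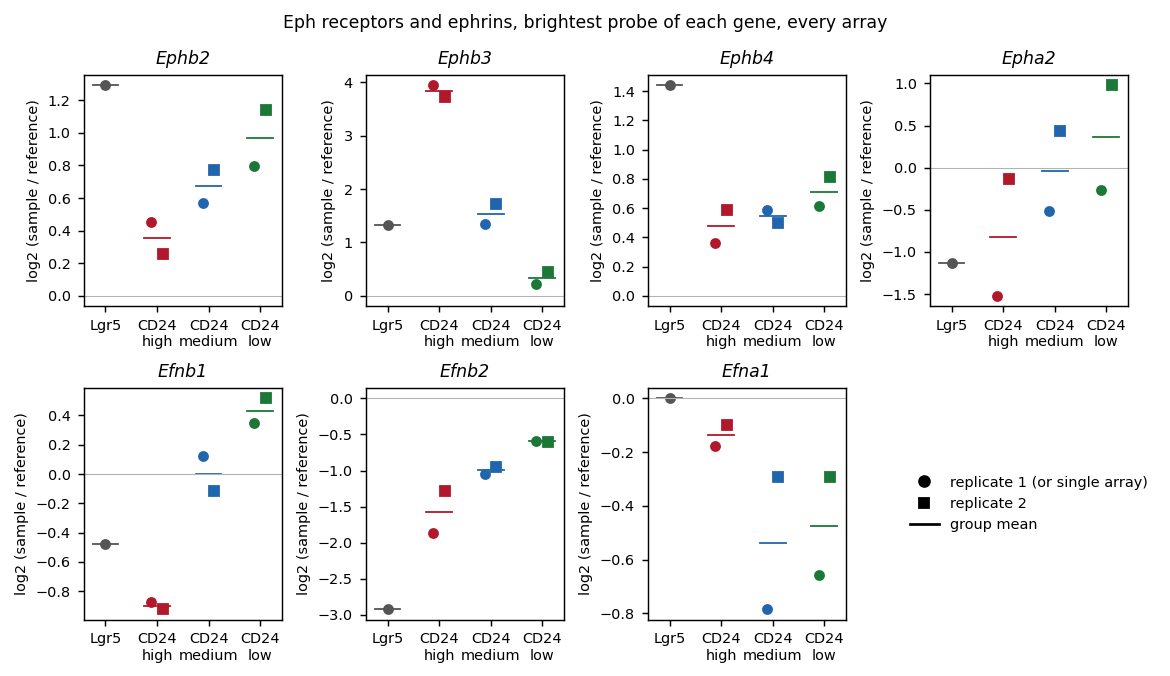
Level of the brightest probe of each member on every array, as log2 of sample over whole small intestine (vertical axis, 1 scale per panel), for the Lgr5 sort and the 3 CD24 levels. Circles are replicate 1 or the single Lgr5 array, squares replicate 2 and lines group means. Ephb3 is highest in CD24 high, at 3.95 and 3.72, Efnb1 lowest there, at −0.88 and −0.92, and Epha2 has replicate 2 above replicate 1 at each CD24 level.

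Ephb3, the receptor tied to Paneth cell position, had the largest differences of the 7 members in the comparisons with CD24 high. Its level was 3.95 and 3.72 in CD24 high, 1.35 and 1.72 in medium, 0.21 and 0.45 in low and 1.33 in Lgr5. Both CD24 high arrays stood above every other array, both low arrays below every other, and medium lay beside Lgr5 with no overlap between CD24 levels. The Cy3 signal itself went the same way, from 6279 and 5849 in CD24 high to 1687 and 1427 in CD24 low, and was above background on all 7 arrays. Group means were 3.84 ± 0.16 (SD, n = 2) in high, 1.54 ± 0.26 (SD, n = 2) in medium and 0.33 ± 0.17 (SD, n = 2) in low.

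In CD24 low, Ephb3 was 11.4-fold lower than in CD24 high, a log2 difference of −3.51 ± 0.20 (SE, limma adjusted p = 0.000117). CD24 medium was 4.93-fold lower than high, at −2.30 ± 0.20 (SE, limma adjusted p = 0.000843). Only 207 of 24495 probes lay further below high in CD24 low, and 384 in CD24 medium. Both calls held in all 18 alternative settings, and within slides medium was below high by −2.60 on slide 1 and −2.004 on slide 2. Low against medium gave −1.20 ± 0.20 (SE), with a 95% interval of −1.67 to −0.74, and did not pass over all probes (limma adjusted p = 0.131). In order of level, high stood above medium and Lgr5, medium and Lgr5 could not be told apart, and low stood below Lgr5.

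Against Lgr5, Ephb3 was 5.70-fold higher in CD24 high, at 2.51 ± 0.24 (SE, limma adjusted p = 0.00068), and this passed in all 15 settings. CD24 medium differed from Lgr5 by 0.21, with a 95% interval of −0.36 to 0.78 (limma adjusted p = 0.593). CD24 low was 1.99-fold lower than Lgr5, at −0.99 ± 0.24 (SE, limma adjusted p = 0.0311). That last call was lost without CD24 low replicate 1 or 2, at limma adjusted p = 0.0704 and 0.0523, and with slide as a term, at 0.110.

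The Paneth markers moved with Ephb3 in the comparisons with CD24 high. Of 8 tested, 8 were lower in medium and 8 lower in low than in high, beside 18.9% and 15.6% of all probes called. Their median differences were −5.20 and −6.55. In low against medium, 3 of 8 passed, each lower in low, beside 0.0857% of all probes. The median there was −1.31, and Ephb3 did not pass. Between Lgr5 and CD24 medium, the markers and Ephb3 did not move alike. All 8 markers were higher in medium, by a median of 3.26, beside 17.7% of all probes called. Ephb3 differed there by the 0.21 given above. The Paneth markers were lowest in Lgr5, where their highest member reached −2.54, and Ephb3 was there at 1.33. The part of Paneth RNA in the level of Ephb3 was not tested beyond these values.

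**Figure D2:**
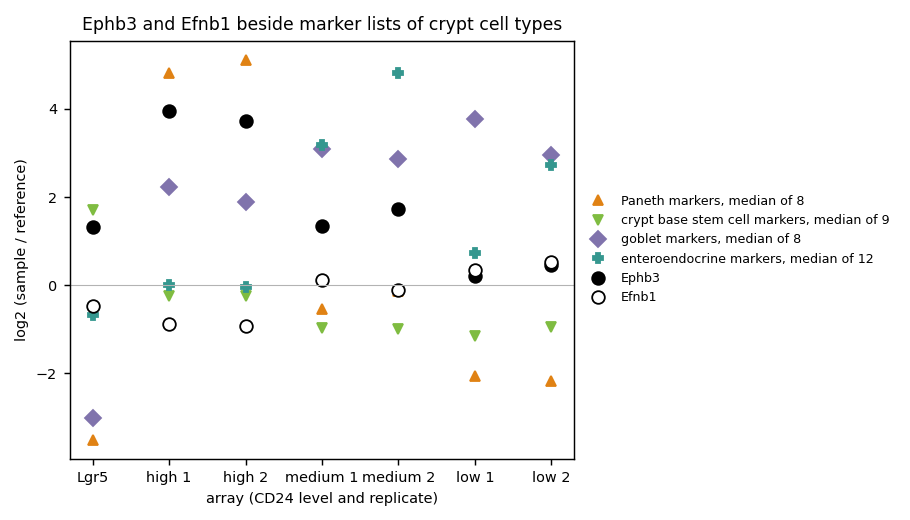
Level of Ephb3 (black circles) and Efnb1 (open circles) on each array, with the median level of tested marker genes of 4 crypt cell types (coloured symbols), as log2 of sample over whole small intestine. Paneth markers and Ephb3 are both highest on the CD24 high arrays, where the marker medians reach 4.80 and 5.11, but on the Lgr5 array the Paneth median is −3.50 and Ephb3 is at 1.33.

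Ephb2, the receptor used to rank cells along the crypt, was highest in Lgr5, and within the Dll1 sorts its values lay in the reverse order of those of Ephb3, without passing the test there. Its probe 1 read 1.29 in Lgr5, 0.45 and 0.26 in CD24 high, 0.57 and 0.77 in medium, and 0.79 and 1.14 in low. High lay lowest and below all other arrays, low above medium, and Lgr5 above all, with no overlap. CD24 high was 1.91-fold lower than Lgr5, at −0.94 ± 0.23 (SE, limma adjusted p = 0.0212).

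Without CD24 high replicate 2 that call was lost, at limma adjusted p = 0.0752. CD24 medium and CD24 low differed from Lgr5 by −0.62 and −0.33, with limma adjusted p = 0.113 and 0.348. Low against high gave 0.61 ± 0.19 (SE), with a 95% interval of 0.16 to 1.06 and limma adjusted p = 0.0747, and medium against high 0.31 with limma adjusted p = 0.283. Low against high passed in 3 of 18 alternative settings, among them the sample channel alone. The order of medium between high and low is therefore a description of 2 arrays each.

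Set against Ephb2 on the same array, Ephb3 separated the sorts in 1 direction. The level of Ephb3 minus that of Ephb2 was 3.50 and 3.47 in CD24 high, 0.78 and 0.95 in medium, −0.58 and −0.69 in low and 0.03 in Lgr5. The replicates of a CD24 level lay within 0.17 of each other, and no 2 levels overlapped. This order without overlap is not particular to Ephb2, since Ephb3 alone showed it. It was also found with Ephb3 set against the brightest probe of each other member. Against Efna1 the values were 4.13 and 3.82 in high, 2.14 and 2.01 in medium, and 0.87 and 0.74 in low. These are differences between 2 ratios to whole small intestine and give no ratio of the RNAs.

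Ephb4 was highest in Lgr5 and did not pass between CD24 levels. Its probe 1 read 1.44 in Lgr5, 0.36 and 0.59 in CD24 high, 0.59 and 0.50 in medium, and 0.61 and 0.81 in low. All 6 Dll1 arrays lay below Lgr5, and CD24 high and medium overlapped. CD24 high was 1.95-fold lower than Lgr5 at −0.96 ± 0.21 (SE, limma adjusted p = 0.0126), a call that held in all 15 settings.

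CD24 medium was 1.86-fold and CD24 low 1.66-fold lower than Lgr5, at limma adjusted p = 0.0284 and 0.0486. These were less firm: the first was lost without either medium array, at 0.0867 and 0.126, and the second passed in 4 of 15 settings. Low against high was 0.23, with a 95% interval of −0.17 to 0.63 (limma adjusted p = 0.378), and medium against high 0.07, with an interval of −0.33 to 0.47 (limma adjusted p = 0.812). Of 11 endothelial markers, the cells EphB4 is best known from in veins, 6 were tested, with medians from −1.62 to −0.36 over the arrays. On the Lgr5 array these 6 ranged from −3.79 to 1.43. Pecam1, Cdh5, Kdr, Tie1 and Emcn were above background on too few arrays to be tested.

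Epha2, the A-class receptor of the set, had the widest gaps between replicates of the 7 members and passed in no comparison. It read −1.13 in Lgr5, −1.52 and −0.13 in CD24 high, −0.51 and 0.44 in medium, and −0.26 and 0.98 in low. Replicate 2 stood above replicate 1 by 1.39, 0.95 and 1.24 in high, medium and low, and the 3 CD24 levels overlapped. Low against high was 1.19 with a 95% interval of −0.21 to 2.58 (limma adjusted p = 0.214), and medium against high 0.79 with an interval of −0.60 to 2.19 (limma adjusted p = 0.379). Only with the replicate number as a block did both pass, at limma adjusted p = 0.00966 and 0.0291. The labels do not say whether these numbers pair the samples. CD24 high, medium and low differed from Lgr5 by 0.30, 1.097 and 1.49, at limma adjusted p = 0.787, 0.335 and 0.183.

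Efnb1, which encodes the transmembrane ligand ephrin-B1, ran opposite to Ephb3 between CD24 levels. It read −0.88 and −0.92 in CD24 high, 0.12 and −0.12 in medium, 0.35 and 0.52 in low and −0.48 in Lgr5. High was lowest and low highest, with no overlap between CD24 levels and Lgr5 between high and medium. The Cy3 signal was 730 and 625 in CD24 high and between 2826 and 3899 on the other 5 arrays. Such signals are not normalised between arrays. That of Efna1 was also lowest in CD24 high, at 211 and 236, though its level there was above that in medium and low. Group means were −0.90 ± 0.03 (SD, n = 2) in high, 0.00 ± 0.17 (SD, n = 2) in medium and 0.43 ± 0.12 (SD, n = 2) in low.

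Efnb1 was 2.52-fold higher in CD24 low than in high, at 1.33 ± 0.17 (SE, limma adjusted p = 0.00327), a call kept in all 18 settings. In CD24 medium it was 1.87-fold higher than in high, at 0.90 ± 0.17 (SE, limma adjusted p = 0.0138). That call was lost without CD24 high replicate 2, medium replicate 1 or medium replicate 2, at limma adjusted p = 0.0651, 0.0934 and 0.0534. Low against medium was 0.43, with a 95% interval of 0.03 to 0.82, and did not pass (limma adjusted p = 0.455).

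Against Lgr5, Efnb1 was 1.88-fold higher in CD24 low, at 0.91 ± 0.20 (SE, limma adjusted p = 0.0240). This passed in 11 of 15 settings. It was lost without CD24 low replicate 2 (limma adjusted p = 0.0723), with the series matrix (0.105), with the sample channel alone (0.0867) and with slide as a term (0.0699). CD24 high and medium differed from Lgr5 by −0.42 and 0.48, at limma adjusted p = 0.159 and 0.153.

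Efnb2, which encodes ephrin-B2, was below whole small intestine in every sort by probe 1 and lowest in Lgr5. Probe 1 read −2.92 in Lgr5, −1.86 and −1.28 in CD24 high, −1.04 and −0.95 in medium, and −0.59 and −0.60 in low. The groups lay in the order Lgr5, high, medium, low without overlap. CD24 low was 5.02-fold, medium 3.80-fold and high 2.55-fold higher than Lgr5, with limma adjusted p = 0.00293, 0.00576 and 0.00910. The first 2 passed in all 15 settings, and the third was lost with the sample channel alone, at 0.49 (limma adjusted p = 0.121).

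Low was 1.97-fold higher than high, at 0.97 ± 0.22 (SE, limma adjusted p = 0.0273). This held in 11 of 18 settings, and left out in turn, high replicate 1, medium replicate 1, medium replicate 2, low replicate 1 and low replicate 2 gave limma adjusted p = 0.0867, 0.0520, 0.0520, 0.0625 and 0.0974. With slide as a term it was 0.0601. Medium against high was 0.57 ± 0.22 (SE, limma adjusted p = 0.110) and was 0.82 on slide 1 and 0.33 on slide 2. Neighbours in the order of CD24 levels thus did not differ beyond the test.

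Efna1, which encodes ephrin-A1, a ligand of EphA2 held in the membrane by a lipid anchor, passed in no comparison. It read 0.00 in Lgr5, −0.18 and −0.10 in CD24 high, −0.78 and −0.29 in medium, and −0.66 and −0.29 in low. Lgr5 and high lay above medium and low, which overlapped. Medium against high was −0.40 with a 95% interval of −0.93 to 0.13 (limma adjusted p = 0.250), and low against high −0.34 with an interval of −0.87 to 0.19 (limma adjusted p = 0.336).

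**Figure D3:**
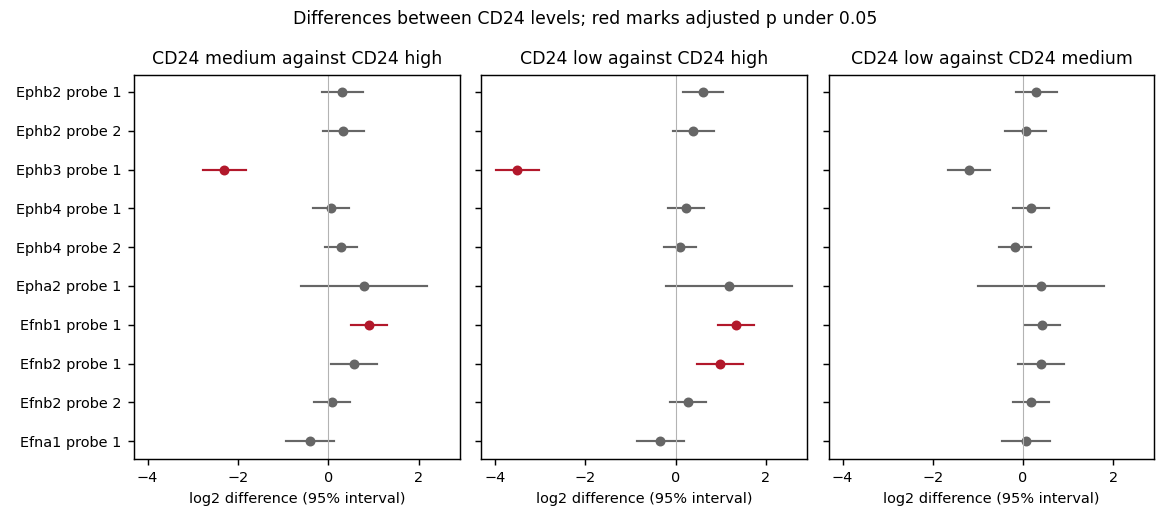
Difference between CD24 levels for each of the 10 member probes, on the log2 scale (horizontal axis), with the 95% interval from the fit (bars). Red marks an adjusted p under 0.05. Ephb3 lies at −2.30 and −3.51 in the comparisons with CD24 high, Efnb1 at 0.90 and 1.33, and no probe is red in low against medium.

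The probes of a gene agreed in direction more than in size. Counting the 6 comparisons between groups, the signs of both probes were the same in 4 for Ephb2, 5 for Ephb4 and 6 for Efnb2. The dimmer probes had Cy3 signals of 63 to 124 with 28 to 33 of local background, and their group means spanned less: 0.39 against 0.94 for Ephb2, 0.60 against 0.96 for Ephb4, and 0.52 against 2.33 for Efnb2. Probe 2 of Ephb2 and of Ephb4 was not well above background on either CD24 high array, and probe 2 of Efnb2 on neither these nor Lgr5. An offset of 50 was added to every signal, which draws ratios of dim probes towards one another, so a low value here is held near a floor.

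Probe 2 of Ephb2 read 0.46 in Lgr5, 0.19 and 0.09 in CD24 high, 0.37 and 0.59 in medium, and 0.33 and 0.73 in low. It put high lowest, as probe 1 did, but Lgr5 inside the range of medium and low, where probe 1 put it on top. None of its 6 differences passed (limma adjusted p from 0.215 to 0.968). With high dim, low against high measured 0.39, with a 95% interval of −0.07 to 0.85.

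Probe 2 of Ephb4 read 0.76 in Lgr5, 0.21 and 0.12 in CD24 high, 0.45 and 0.44 in medium, and 0.22 and 0.31 in low. It too put Lgr5 on top, and CD24 high was at least 1.42-fold lower than Lgr5, with measured levels of 0.16 and 0.76 (limma adjusted p = 0.0435). That call was lost whichever Dll1 array was left out, at 0.0511 to 0.122. It differed from probe 1 in placing low below medium, by −0.18 where probe 1 gave 0.17, and neither passed.

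Probe 2 of Efnb2 read −0.51 in Lgr5, −0.41 and −0.11 in CD24 high, −0.19 and −0.14 in medium, and −0.05 and 0.06 in low. The order of the means was that of probe 1, with high and medium overlapping and no difference passed. Measured means were 0.01 in low and −0.26 in high (limma adjusted p = 0.315). In the authors' deposited log ratios the same probe read −1.70 in Lgr5, −2.44 and −2.26 in high, −0.50 and −0.25 in medium, and 0.01 and 0.18 in low. There it passed in low against high at 2.44 (limma adjusted p = 0.00190) and in medium against high at 1.97 (limma adjusted p = 0.00412), and put high below Lgr5 by −0.65, which probe 1 did not.

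In the deposited log ratios the spans of the 2 probes were nearer, at 1.02 and 1.19 for Ephb2, 1.17 and 0.82 for Ephb4, and 2.56 and 2.44 for Efnb2, with the same sign in 5, 6 and 5 of 6 comparisons. Probe 2 of Ephb2 then read −0.17 and 1.06 on the CD24 high arrays, the widest gap between replicates of the second probes. No member probe read higher in CD24 high than in every other sort save Ephb3, which was bright on every array and has no second probe to set beside it.

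**Figure D4:**
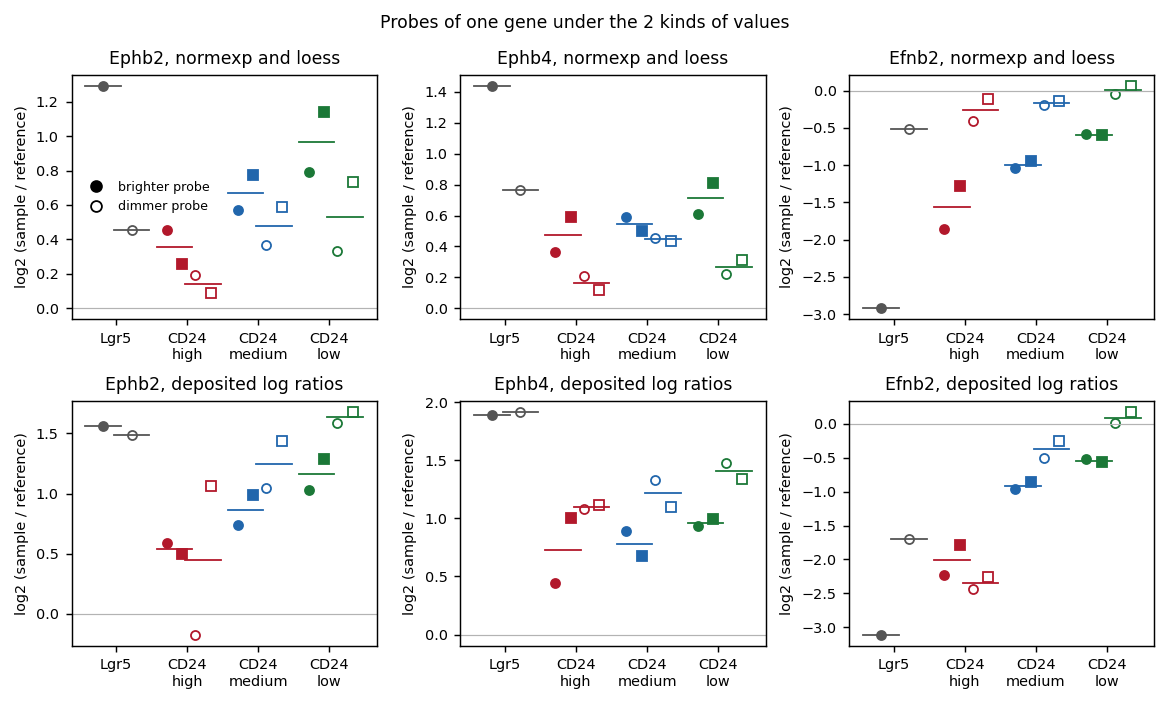
Levels of both probes of Ephb2, Ephb4 and Efnb2 on every array (log2 of sample over reference), with the brighter probe filled and the dimmer open, and circles and squares for replicates 1 and 2. The upper row holds values after normexp and loess, the lower row the authors' deposited log ratios. The dimmer Efnb2 probe spans 0.52 between group means above and 2.44 below.

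Of 15 other Eph receptors and ephrins, 14 were found on the array with 22 probes, and 8 genes were tested. In medium against high 1 of 8 was called and in low against high 1 of 8, beside 18.9% and 15.6% of all probes. Efnb3, which encodes the third transmembrane ephrin, was the only one called between CD24 levels. It read 0.60 in Lgr5, 0.21 and −0.02 in CD24 high, 1.26 and 1.19 in medium, and 0.88 and 1.30 in low. High was lowest, and Efnb3 was not well above background there, so medium was at least 2.01-fold higher (limma adjusted p = 0.0114). Efnb3 passed the filter only through medium, low and Lgr5 arrays, so its lower level in high was set in part by the filter. The measured difference of low from high was 0.99 (limma adjusted p = 0.0180). The first call was lost without high replicate 2, medium replicate 1 or medium replicate 2 (limma adjusted p = 0.0606, 0.0658 and 0.0623), and the second without high replicate 2 or low replicate 2 (0.0886 and 0.0774). Against Lgr5, Efna4, named after its values were seen, was lower in CD24 high by −1.50 and in CD24 low by −1.34 (limma adjusted p = 0.0101 and 0.0248). The call in CD24 low was lost with slide as a term (limma adjusted p = 0.0944), and CD24 low and Lgr5 shared no slide.

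The probes of Epha4, also named after its values were seen, disagreed. Probe 2 read 1.78 on CD24 high replicate 2 and between −0.38 and −0.24 on the other 6 arrays, while probe 1 read −0.72 there and −1.25 to −0.44 on the others. Neither was called in a comparison between CD24 levels. The genes Epha5, Epha6, Epha8, Ephb1, Ephb6 and Efna2 were well above background on fewer than 2 arrays.

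Genes that act with the family were taken from 4 lists of general knowledge, and their counts stand beside 18.9% of all probes called in medium against high and 15.6% in low against high. Of 31 tested genes of forward signalling, the adaptors, kinases and exchange factors under Eph receptors, 2 were lower in medium than in high and 3 lower in low than in high, with none higher. In medium 1 was left without high 2, medium 1 or medium 2, and in low 0 without high 1, high 2 or low 2 and 1 without medium 1 or medium 2. The median differences were −0.05 and −0.09. Vav2, an exchange factor for small GTPases, was lower by −0.64 and −0.71 (limma adjusted p = 0.0439 and 0.0359). Grb10, an adaptor counted here, was well above background only on the 2 CD24 high arrays and passed the filter through them alone, so it had to be lower elsewhere. Its measured differences were −1.26 in medium and −0.98 in low. Abl2, a kinase, was lower in low by −0.69 (limma adjusted p = 0.0320). Vav2 passed in 13 and 11 of 19 settings and Abl2 in 12.

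Of 11 tested genes of ephrin-B reverse signalling, 3 were lower in medium and 3 in low than in high, with none higher, and median differences of −0.58 and −0.47. In medium 1 was left without any 1 of the high or medium arrays and there were 5 without low 1 or low 2, and in low 0 were left without high 2 and 1 without high 1, medium 1 or medium 2. Cldn4, a tight junction protein that binds ephrin-B1, read −2.10 in Lgr5, 3.06 and 3.50 in CD24 high, 0.24 and 1.41 in medium, and 0.63 and 1.29 in low. It was 5.49-fold lower in medium and 4.99-fold lower in low than in high (limma adjusted p = 0.0102 and 0.0125), so it was highest in the same sort as Ephb3. Without CD24 high replicate 2 both calls were lost (limma adjusted p = 0.0578 and 0.0686). Rgs3, a regulator of G proteins that binds ephrin-B, was lower by −1.06 and −0.88, and the adaptor Sdcbp by −0.88 and −0.89, with limma adjusted p between 0.0131 and 0.0452.

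Of 8 tested genes of shedding, adhesion and turnover, 3 were lower in medium than in high, and in low 1 was lower and 1 higher. In medium 1 was left without high 2, medium 1 or medium 2, and in low 1 was left without any 1 of the Dll1 arrays but low 1. Mmp7, a protease of Paneth granules that is also among the Paneth markers, was lower by −4.23 in medium and −5.25 in low (limma adjusted p = 4.01e-05 and 8.65e-06). Mmp2, a matrix protease, was lower in medium by −1.09 (limma adjusted p = 0.0155) and well above background on only 3 arrays. Adam17, a sheddase of surface proteins, was higher in low by 0.75 (limma adjusted p = 0.0302).

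Of 17 tested genes of the Wnt and Notch inputs to EphB, 1 was higher and 6 lower in medium than in high, and 2 higher and 4 lower in low. The 7 calls in medium fell to 1 without high 2 or medium 2, 2 without medium 1 and 4 without high 1, and the 6 in low to 1 without low 2 and 3 without high 1 or high 2. Sox9, a factor of the crypt base and of Paneth cells, read 1.23 in Lgr5, 2.18 and 1.67 in CD24 high, 0.80 and 0.34 in medium, and 0.15 and 0.23 in low. It was lower by −1.35 in medium and −1.73 in low (limma adjusted p = 0.0120 and 0.00470), in the same order of CD24 levels as Ephb3, and the first call was lost without medium replicate 2 (limma adjusted p = 0.0731). Tcf7 and Lef1, DNA partners of beta-catenin, were not well above background in medium or low. They were at least 2.06-fold and 2.41-fold lower in medium than in high. Both passed the filter only through CD24 high and Lgr5 arrays, Lef1 through 1 of each. Their lower level in medium and low was thus set in part by the filter, though both count among the lower genes above. Cdx1, a factor of intestinal identity, ran the other way and was 2.25-fold higher in low than in high (limma adjusted p = 0.0100), or 0.0513 without low replicate 2.

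Among the genes named from these lists, Mmp7 in both comparisons and Sox9 in low against high passed in all 19 settings, leaving out single arrays included. Each other call was lost in at least 1 setting. Of 19 settings, Sdcbp passed in 10 and 9, Rgs3 in 15 and 11 and Adam17 in 12.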

How the data were processed

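Sample and reference RNA were hybridised together on 7 Agilent dual-colour arrays on 2 slides, with 100 ng of total RNA amplified and labelled per the labels' protocols. Per the file headers, Agilent Feature Extraction 10.5.1.1 gave the intensity of each spot and its local background in either channel, with probe positions on mm9. The deposited series matrix holds log10 ratios. It equals the files' log10 ratio with the sign turned, to within 5.0e-06, so it gives sample over reference, and its gene spots have a median of 0 on every array but CD24 high replicate 2 (−0.0185). The sample was always Cy3, so a dye effect cannot be told apart from a difference to the reference but cancels between groups.

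Mean signals were corrected with normexp (offset 50) and log2 ratios normalised by loess (span 0.3, control spots at weight 0) in limma 3.58.1 under R 4.3.3 (reading files with version 1.17.8 of data.table), and figures drawn with matplotlib 3.10.9 under Python 3.11.15. Flagged outlier spots were left out and spots of a probe averaged. Probes well above background in the sample channel on at least 2 of 7 arrays were kept. The linear model had a mean for each of 4 groups over the 7 arrays (3 residual and 3.79 prior degrees of freedom), with Benjamini-Hochberg adjustment over all probes and a threshold of 0.05. The script was tested on simulated data. Where every array of 1 group was not well above background, the fold is the bright group's mean over, per dim array, the higher of its own signal and the lowest signal among probes well above background, and is given as "at least", unless it exceeds the fold of the fitted ratios. These bounds come from single channels, with no dye swap, and are open to dye bias.

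Named are the 7 members, other Eph or ephrin genes past the threshold between CD24 levels, from every list at most 4 genes with the largest such difference, the 3 genes most like each member, and Cd24a, Dll1 and Lgr5. One gene that this rule names is not reported here. The members and lists were chosen with earlier results of these data known. Through RefSeq accessions 26918 probes were named and 14256 kept the file's name. Of 183 list genes, 180 were on the array and 159 were tested. Alternatives covered background correction, offset, scaling, filter, slide, replicate number, the samples in the fit and leaving out each array.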

Additional observations from a re-analysis of the deposited data

How the results depend on the processing

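Of 254 pairs of a called member difference and an alternative, 209 kept direction and call and 45 lost the call, and of 718 pairs with no call 676 stayed so, 16 gained a call and 26 turned sign without a call. Ephb3 in medium and low against high, Efnb1 in low against high, and, against Lgr5, Ephb3 and Ephb4 probe 1 in high and Efnb2 probe 1 in medium and low passed in every alternative. Member probes called in medium against high were 4 with the series matrix and 1 to 2 with 1 array left out. Against Lgr5, medium gave 1 with an offset of 16 or slide as a term and 1 to 2 with 1 array left out, low gave 2 with that offset, 2 with the sample channel alone, 1 with slide as a term and 1 to 3 with 1 array left out, and high gave 3 to 4 with 1 array left out. Low against medium gave 0 in each. Calls in the 4 lists of acting genes ran from 0 to 9, and those in other Eph and ephrin genes from 0 to 4. Scaling of average intensity leaves ratios as they are, and leaving out the single Lgr5 array cannot alter a comparison between CD24 levels. The counts of settings and pairs include these repeats of the main fit.

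Signs turned as follows. Without background subtraction, Ephb4 probe 1 was −0.058 in medium against high, Ephb4 probe 2 0.013 in low against medium and Ephb2 probe 2 −0.061 in medium against Lgr5. In the series matrix, Ephb4 probe 2 was 0.19 in low against medium, Epha2 −0.025 and Efnb2 probe 2 −0.65 in high against Lgr5, and Ephb2 probe 2 −0.24 in medium against Lgr5. With the sample channel alone, Ephb4 probe 2 was −0.014 and −0.058 in medium and low against high, Efnb2 probe 2 −0.064 in high and Ephb2 probe 2 −0.043 in medium against Lgr5. With slide as a term, Epha2 was −0.19 and Efna1 −0.081 in low against medium, Epha2 −0.28 in high and Ephb2 probe 2 −0.0069 in medium against Lgr5. With 1 array left out, medium against high ran from −0.047 to 0.18 for Ephb4 probe 1 and from −0.057 to 0.24 for Efnb2 probe 2, lowest without high 1. Low against medium ran from −0.15 to 0.26 for Ephb2 probe 2, −0.23 to 1.02 for Epha2 and −0.18 to 0.31 for Efna1, below 0 without medium 1 or low 2. Against Lgr5, Epha2 ran from −0.39 to 0.999 in high, lowest without high 2, and Ephb2 probe 2 from −0.088 to 0.13 in medium and −0.12 to 0.28 in low, lowest without medium 2 and low 2. The cause was not tested.

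Over all probes, calls in low against high were 3815, and 6547 without background subtraction, 7523 in the series matrix, 2214 and 2290 without high 1 or 2 and 1990 without low 2. Low against medium had 21, and 35 without background subtraction, 13 with an offset of 16, 37 with the replicate block, 34 and 10 without medium 1 or 2, and 11 and 35 without low 1 or 2. Medium against high had 4634, and 3052, 2172, 1808 and 1481 without high 1, high 2, medium 1 or medium 2. Low against Lgr5 had 5084, and 1943 with slide as a term and 3067 without low 2, and medium against Lgr5 4325, and 2413 and 1736 without medium 1 or 2. Of calls in medium against high, 35.9% were higher in medium, but 59.7% in the series matrix, which moved the median of all probes by 0.23, and 54.4% with the sample channel alone. In low against high it was 38.5%, 61.4% and 53.7%, in high against Lgr5 59.2%, 42.4% and 40.6%. With the sample channel alone, medium against Lgr5 went from 54.8% to 42.1% and low against Lgr5 from 56.2% to 39.8%, or 67.3% with slide as a term.

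Deviations of same-numbered replicates correlated at 0.30, −0.01 and 0.46 between CD24 levels, and the labels do not tie the numbers to animals or days. Whether the numbers pair the samples is therefore not known. With the replicate number as a block, 3, 4 and 0 member probes passed in medium and low against high and low against medium, with Epha2 added at limma adjusted p = 0.0291 and 0.00966. Dim probes, the single Lgr5 array and 2 arrays a level limit what these values show.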

Other observations

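Genes whose levels ran most like each member over the 7 arrays were listed by Pearson r, among 7482 or 7483 probes of other named genes whose group means spanned at least 1 on the log2 scale. The 7 arrays share a reference and include replicates, so r is a description and no p is given. For Ephb3 they were Peli2, an E3 ligase of innate immune signalling, Tpd52l1 and Tmed6 (each r = 0.99). Tmed6 read 4.21 and 4.31 in CD24 high, 0.30 and 0.83 in medium, −0.82 and −0.54 in low and 0.16 in Lgr5, the same order of group means as Ephb3. For Ephb2 they were Mrpl44, of the mitochondrial ribosome, Haus5, of the spindle, and Actl6a, of chromatin remodelling complexes (each r = 0.98). For Ephb4 they were Prim2, a subunit of DNA primase, Pfkfb1 and Aunip (each r = 0.99).

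For Efnb1 the closest were Tep1, Ankfy1 and Ppip5k1 (each r = 0.99). For Efnb2 they were Plscr1, Pigr, the receptor that carries antibodies across the epithelium, and Ccdc88b (each r = 0.99). Pigr read −1.54 in Lgr5, −0.58 and −0.16 in CD24 high, 0.06 and 0.25 in medium, and 0.36 and 0.66 in low. For Efna1 they were Sema7a, Bckdhb and Ifitm7 (r = 0.99, 0.91 and 0.91). For Epha2, whose replicates differed, they were Oasl2, Dhx58 and Mdh1b (r = 0.97, 0.96 and 0.96). Oasl2 and Dhx58 are known as genes induced by interferon. Oasl2 was above its replicate 1 on each replicate 2 array, as Epha2 was: it read −1.99 and −0.17 in high, −1.18 and 0.52 in medium, 0.23 and 1.38 in low and −1.67 in Lgr5.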
